A study of Rattus norvegicus with 12 samples.

Results

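The lipogenesis genes are the enzymes and regulators that turn carbohydrate carbon into fatty acid and triglyceride. They were 10 genes given by symbol. The list was chosen for the lower log2 expression of its measured genes in denervated than in sham-operated bladders of this same set. A probe set was taken for a gene when that symbol was its only one, and where several qualified the brightest was used. This found 9 of the 10 among 18166 measured genes, each with 1 probe set. Fasn, the fatty acid synthase itself, was not analysed here.

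The samples were urinary bladder of female Sprague Dawley rats of about 3 months, with 1 array per sample. The 6 sham samples came from rats that had the operation alone. The 6 denervated samples came from rats in which the ganglia on both sides were also frozen, described as freezing of the pelvic nerve supply, and which were studied 10 days later. The tissue is labelled as more than 95% smooth muscle. All 10 measured smooth muscle markers and all 13 measured urothelial markers lay above the array medians in sham bladders. Fewer cells of a type and less RNA per cell cannot be told apart in such samples. The labels do not say that each sample came from a separate animal, so p-values measure the spread between these samples.

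New fatty acid is made from acetyl-CoA in the cytosol. ATP citrate lyase supplies the acetyl-CoA, acetyl-CoA carboxylase makes malonyl-CoA from it, and fatty acid synthase builds palmitate with NADPH that malic enzyme helps to supply. Elongation and desaturation follow, and acyltransferases then join the acyl chains to glycerol. The programme is driven by the transcription factor SREBP-1c together with carbohydrate and liver X receptor signals, and it is best known from liver and adipose tissue. In the bladder wall fat lies mainly around the organ, while smooth muscle and urothelium make lipid for their own membranes.

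Sequences upstream of listed transcription starts were taken from RefSeq (build GRCr8), where 6 of the 10 genes matched: Scd, Thrsp, Acly, Gpam, Me1 and, with 2 starts, Srebf1. Only the 250 bases before a start were read. Those of Scd and Thrsp are shown because these genes differed most between the groups, that of Gpam because its groups did not overlap, and that of Srebf1 because its product regulates the others. Capitals mark CCAAT on either strand (read as ATTGG on the other), the box bound by NF-Y, a partner of SREBP proteins. All 4 stretches lie on the minus strand, at chr1:253231732-253231981 (Scd), chr1:161138965-161139214 (Thrsp), chr1:264175912-264176161 (Gpam) and chr10:45519011-45519260 (Srebf1, the listed start with the lower coordinate).
Scd: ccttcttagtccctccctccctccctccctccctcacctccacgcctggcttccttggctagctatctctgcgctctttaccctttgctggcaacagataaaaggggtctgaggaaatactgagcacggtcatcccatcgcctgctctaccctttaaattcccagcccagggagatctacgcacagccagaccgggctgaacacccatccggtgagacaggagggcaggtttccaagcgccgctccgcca
Thrsp: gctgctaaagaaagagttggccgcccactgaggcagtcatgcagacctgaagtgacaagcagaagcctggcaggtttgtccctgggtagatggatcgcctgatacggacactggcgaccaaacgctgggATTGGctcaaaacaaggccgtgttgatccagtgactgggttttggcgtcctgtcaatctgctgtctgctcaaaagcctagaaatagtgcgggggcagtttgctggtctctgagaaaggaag
Gpam: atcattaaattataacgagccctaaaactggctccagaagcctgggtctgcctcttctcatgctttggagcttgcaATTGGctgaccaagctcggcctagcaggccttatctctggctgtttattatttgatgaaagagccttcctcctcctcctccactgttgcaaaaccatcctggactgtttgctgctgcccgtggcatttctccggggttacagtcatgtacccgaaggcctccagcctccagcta
Srebf1: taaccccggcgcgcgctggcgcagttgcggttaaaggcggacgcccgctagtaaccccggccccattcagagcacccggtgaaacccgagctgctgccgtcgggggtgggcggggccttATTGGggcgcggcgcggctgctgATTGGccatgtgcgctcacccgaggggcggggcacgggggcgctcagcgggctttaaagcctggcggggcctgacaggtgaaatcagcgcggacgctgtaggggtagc

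A CCAAT box stood 121 bases before the start of Thrsp, 174 before that of Gpam, 71 before that of Acly, and 131 and 108 before the Srebf1 start shown. Its other start had one 169 bases upstream. In all, 5 of the 7 starts held CCAAT, against 34.0% of 33469 listed starts. GGGCGG, bound by Sp1, was in 5 of the 7 starts and in 30.5% of all starts. The E-box CACGTG (5.59% of all starts) and TCACNCCAC, a form of the sterol response element (0.974%), were in 0 of the 7. Both strands were searched, and no motif lies within another. A match is a description of the letters in this window, and a missing one says nothing of sites farther away.

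In the denervated bladders 8 of the 9 measured lipogenesis genes were called lower and 0 higher in the fit over all genes, where 28.7% of genes were called in either direction and 16.9% lower. "Called" means a Benjamini-Hochberg adjusted p under 0.05 in limma over 18166 genes. Because the genes were listed with this contrast known, these calls describe the list and are no test of it. All 9 differences were below 0, with a median of -0.44 on the log2 scale against -0.04 over all genes. They were of very unequal size. Scd stood at 12.4% of its sham level and Thrsp at 27.3%, while the other 7 lay between 70.6% and 84.7%. Values below are deposited log2 expression values, with means ± SD (n = 6 per group) and differences of the means ± SE.

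Among the regulators, Srebf1 encodes SREBP-1, the transcription factor that switches on most of the other genes here. Its sham values ran from 7.48 to 7.96 with a median of 7.76, and its denervated values from 7.02 to 7.65 with a median of 7.44. The groups overlapped, with 4 of 6 denervated arrays below every sham array. The difference was -0.37 ± 0.12, or 77.4% of sham. It was called, but the call was lost on leaving out sham array 2 (-0.34), 4 (-0.36) or 5 (-0.32), or array 3 (-0.32) or 4 (-0.30) of the denervated group.

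Thrsp, also called Spot 14, is a small thyroid hormone-responsive protein that promotes fatty acid synthesis. It ranged from 7.99 to 9.80 in sham bladders (median 8.64) and from 5.81 to 8.02 after denervation (median 6.75). Of the denervated arrays only replicate 6, at 8.02, reached into the sham range, just above sham replicate 6 at 7.99. The means were 8.69 ± 0.62 and 6.82 ± 0.87, a difference of -1.87 ± 0.38 and the widest spread within a group among the 9 genes. The denervated median lay below the array medians of 6.80 to 6.86. The share of background in such a signal is unknown, so the size of the fall is uncertain.

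Of the enzymes that supply substrate, Acly (ATP citrate lyase) was not called. Its sham values of 9.61 to 9.94 (median 9.88) overlapped widely with the denervated values of 9.31 to 9.87 (median 9.60), and the difference was -0.24 ± 0.10. It was called without denervated replicate 5, the highest array of its group, at -0.30. Me1, the cytosolic malic enzyme, was at 9.91 to 10.13 in sham bladders (median 9.94) and at 9.12 to 9.79 after denervation (median 9.59). These groups did not overlap, and denervated replicate 2 was the lowest of all. The difference was -0.44 ± 0.10.

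Acaca, the carboxylase that commits acetyl-CoA to fatty acid synthesis, ran from 8.31 to 8.64 in sham bladders (median 8.53) and from 8.02 to 8.43 after denervation (median 8.21). Denervated replicate 2 was the highest of its group and lay among the sham values, and sham replicate 6 was the lowest of its own. The difference was -0.30 ± 0.08.

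The enzymes that modify the fatty acid differed without overlap of the groups. Elovl6, which lengthens palmitate to stearate, lay between 10.43 and 10.73 in sham bladders (median 10.61). After denervation it lay between 10.02 and 10.17 (median 10.12), the tightest denervated group among the 9 genes (10.11 ± 0.06). The difference was -0.50 ± 0.06. Scd, the stearoyl-CoA desaturase that makes oleate, ran from 8.70 to 10.45 in sham bladders (median 9.37) and from 5.96 to 7.13 in denervated ones (median 6.47). All 6 denervated arrays lay below the lowest sham array. The means were 9.47 ± 0.58 and 6.47 ± 0.44, a difference of -3.01 ± 0.26 or 8.04-fold, the 2nd largest fall of all 18166 genes. The denervated mean lay below the array medians of 6.80 to 6.86, where the share of background in the signal is unknown, so the size of the fold is uncertain.

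**Figure D1:**
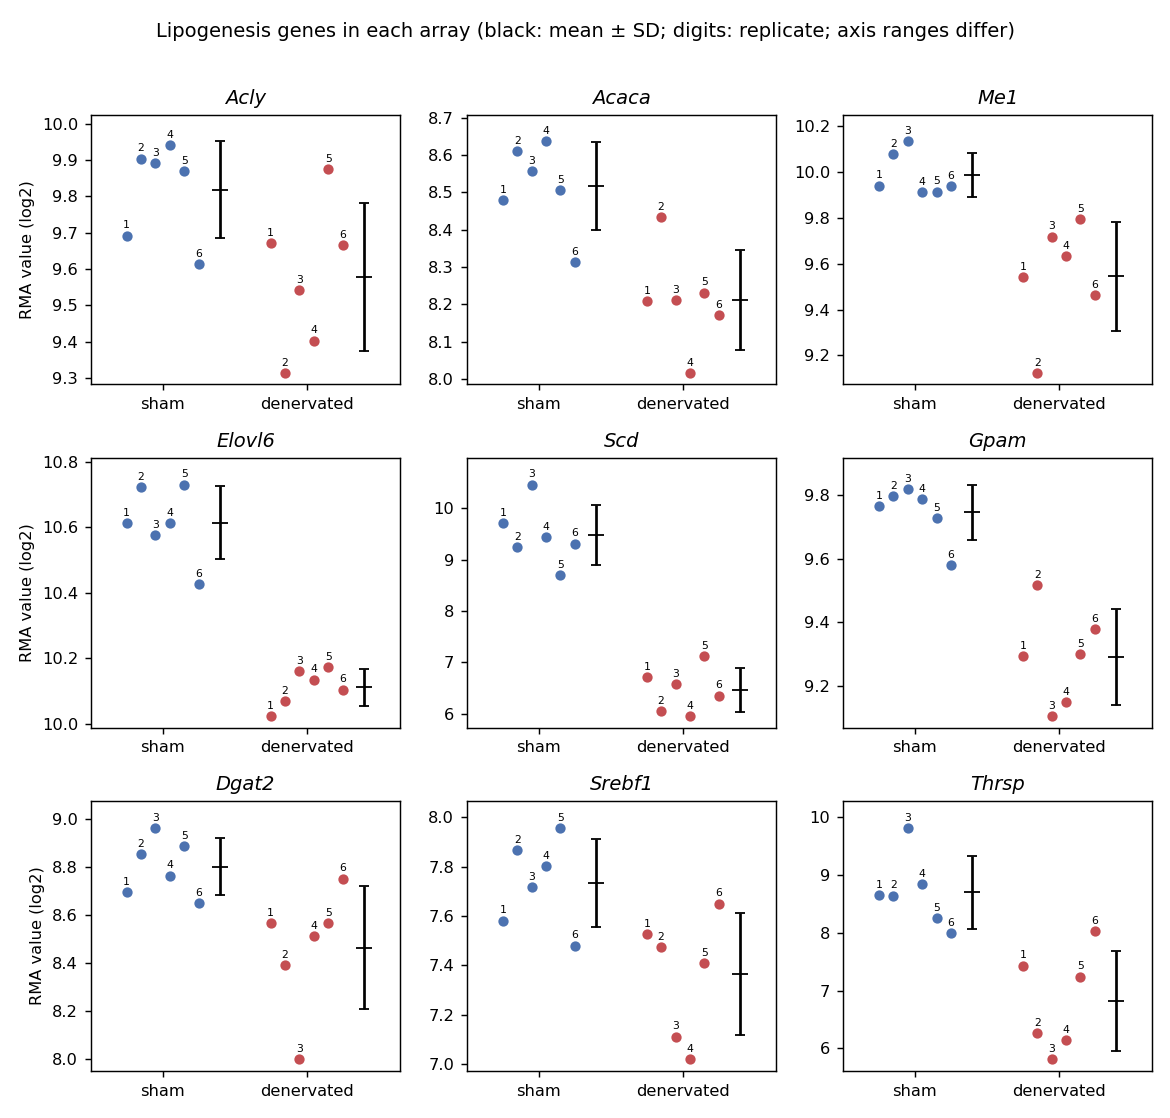
Deposited RMA values (log2, vertical axes, whose ranges differ) of the 9 measured lipogenesis genes in 6 sham (blue) and 6 denervated (red) arrays, numbered by replicate, with mean ± SD in black. Scd, Elovl6, Gpam and Me1 have separate groups, while Acly, Acaca, Dgat2, Srebf1 and Thrsp overlap.

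At the step of glycerolipid assembly, Gpam, the mitochondrial acyltransferase that adds the first acyl chain to glycerol 3-phosphate, lay between 9.58 and 9.82 in sham bladders (median 9.78). In denervated bladders it lay between 9.11 and 9.52 (median 9.30), with no overlap and with replicate 2 nearest to sham. The difference was -0.46 ± 0.07. Dgat2, which adds the last chain to form triglyceride, was at 8.65 to 8.96 in sham bladders (median 8.81) and at 8.00 to 8.75 after denervation (median 8.54), the lowest value being that of replicate 3 and the highest, that of replicate 6, lying among the sham values. Its difference of -0.34 ± 0.11 was called, but the call was lost on leaving out sham array 2 (-0.33), 3 (-0.30), 4 (-0.34) or 5 (-0.32), or array 4 of the denervated group (-0.35).

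In all, the groups did not overlap in 4 of the 9 genes, with the denervated values lower, as in 7.59% of all genes. The rule used this contrast, so nothing is read from that share.

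**Figure D2:**
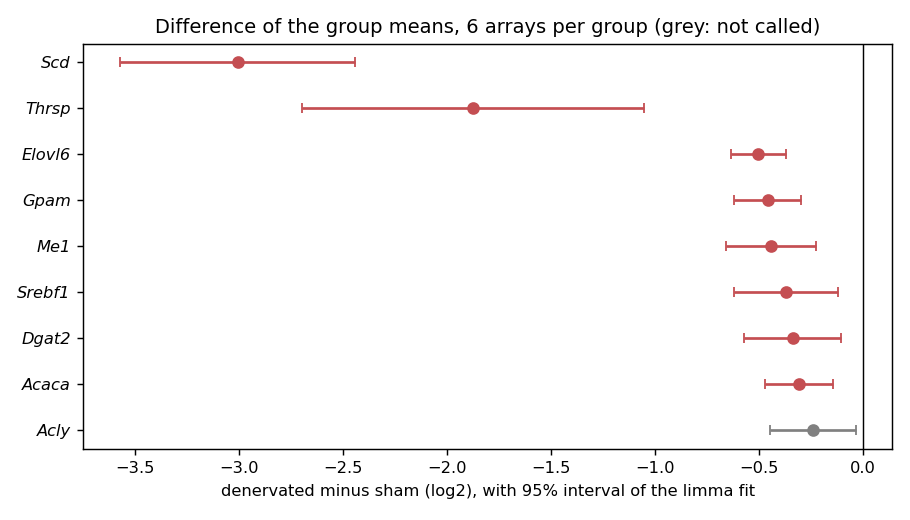
Differences of the group means (horizontal axis, denervated minus sham, log2, 6 arrays per group) of the 9 genes, with the 95% interval of the limma fit. Scd at -3.01 and Thrsp at -1.87 stand apart from the other 7, which lie between -0.50 and -0.24; Acly, in grey, was not called.

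Denervated replicate 2 differed from its group over the whole array. On the first principal component of all genes (58.0% of the variance) it was at -5.84, between the sham arrays (-30.2 to -22.5) and the other denervated arrays (25.9 to 42.5). The lipogenesis genes were chosen by a contrast that includes this array, so nothing is read from their place in it. Their mean deviation from sham was -0.97 in replicate 2 and -1.05 to -0.63 in the other 5 denervated arrays. That mean is unscaled, so Scd and Thrsp weigh most in it. In replicate 2 Scd (6.06), Thrsp (6.26), Acly (9.31) and Me1 (9.12) were among the 3 lowest denervated values, while Acaca (8.43) and Gpam (9.52) were the highest. Without this array and sham replicate 3, which had the highest Scd and Thrsp values, 7 of the 9 genes were called, all but Acly and Dgat2, with Scd at -2.73 and Thrsp at -1.54.

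As a median over gene pairs, the 9 genes correlated more among sham arrays than among denervated ones. This is a description over arrays that share all 9 values. Over the 36 gene pairs the correlation across the 6 sham arrays had a median of 0.62, and 34 pairs were above 0. Across the 6 denervated arrays the median was 0.24 with 22 pairs above 0. The difference between these medians was not tested, and gene pairs in general were not set beside them. Sham replicate 6 was the lowest sham array for Thrsp, Acaca, Acly, Elovl6, Gpam, Dgat2 and Srebf1, though not for Scd and Me1. That array weighs in many of the sham correlations, which were not computed without it. With deviations taken from each group's mean over the 12 arrays, Thrsp (0.84), Acly (0.73) and Dgat2 (0.61) followed the mean of the other members most closely. Elovl6 (0.06) and Me1 (0.21) followed it least. The deviations were averaged without scaling, so genes that vary widely within a group, above all Scd and Thrsp, weigh most in that mean. Within groups Elovl6 had r = -0.20 with Scd and -0.07 with Thrsp, and 0.09 to 0.43 with the other members.

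Outside the lists, the 5 genes whose deviations from the group means ran most like the mean of the 9 genes over the 12 arrays were Rbp4 (r = 0.91), Spt1 (0.87), Acer2 (0.85), Bin2 (0.83) and C8h11orf97 (0.82). They are the highest values over all genes outside the lists and are given with no test. That mean is unscaled as well, so Scd and Thrsp weigh most in it. Rbp4, the plasma carrier of retinol, which liver and adipose tissue secrete, went from 7.12 ± 0.30 to 6.61 ± 0.34 (-0.51 ± 0.17, adjusted p = 0.0354 in limma). Its call was lost on leaving out any of sham arrays 1 to 4 or of denervated arrays 2 to 4 (adjusted p = 0.0521 to 0.0787). Acer2, an alkaline ceramidase, fell by 0.53 ± 0.11 (adjusted p = 0.00305), and Bin2, a protein of leukocytes, rose by 0.84 ± 0.18 (adjusted p = 0.00324). Spt1 (-0.27) and C8h11orf97 (0.01) were not called, and Spt1 was among the dimmest probe sets on the arrays.

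Other genes of lipid metabolism were described by 7 lists that held 104 measured genes. The median differences of these lists ran from -0.20 to -0.02, and the called share is to be read against 28.7% of all genes. The lipogenesis genes were chosen by this contrast, so nothing is read from their lower median of -0.44. In 6 of the 7 lists more genes fell than rose, and in the list of uptake as many fell as rose. Falls also outnumbered rises over all genes, with 16.9% called lower and 11.9% higher.

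Of 16 regulators 5 fell, 1 rose and 10 were not called. Prkaa2, the AMP-activated kinase subunit whose complex inactivates acetyl-CoA carboxylase, fell most (-0.97 ± 0.19, adjusted p = 0.00200). Ppargc1b, a coactivator of SREBP-1, fell by 0.64 ± 0.15 (adjusted p = 0.00720), and Mid1ip1, the paralogue of Thrsp that activates acetyl-CoA carboxylase, by 0.32 ± 0.07 (adjusted p = 0.00596). Nr1h3, the liver X receptor alpha that induces Srebf1, rose by 0.28 ± 0.07 (adjusted p = 0.00789). Its denervated values lay wholly above the sham values. Srebf2, the factor of sterol synthesis, was at -0.07 ± 0.10 and Insig1, which retains SREBP precursors in the endoplasmic reticulum, at 0.14 ± 0.13, and neither was called.

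Of 14 genes of acetyl-CoA, malonyl-CoA and NADPH supply 5 fell, 0 rose and 9 were not called. Me3, the mitochondrial NADP malic enzyme, fell by 0.51 ± 0.10 (adjusted p = 0.00242). Acacb, the carboxylase whose malonyl-CoA restrains fatty acid oxidation, fell by 0.50 ± 0.13 (adjusted p = 0.00964). Both were below the array medians. Slc25a10, the dicarboxylate carrier, fell by 0.26 ± 0.09 (adjusted p = 0.0454), a call lost on leaving out sham array 1, 2, 3 or 5, or array 1, 3, 5 or 6 of the denervated group (adjusted p = 0.0549 to 0.0972), and also with array weights (0.0636) or further quantile normalization (0.0632). Acss2, which makes acetyl-CoA from acetate, was at -0.25 ± 0.10 and was called without denervated replicate 6 (-0.33, adjusted p = 0.00546), with array weights (-0.31, adjusted p = 0.00921) and with median centring (-0.27, adjusted p = 0.0489). The list had 2 falls on leaving out sham array 2 or 5, or array 1 or 5 of the denervated group. It had 3 falls on leaving out sham array 1 or 3, or denervated array 3.

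Elongases and desaturases other than Elovl6 and Scd gave 6 falls, 0 rises and 9 uncalled genes of 15. Of the falls 5 had separate groups, as had 7.59% of all genes with the denervated values lower. Elovl4, which makes very long chains, fell by 0.58 ± 0.09 (adjusted p = 0.000693). Cyb5a, the cytochrome b5 that passes electrons to the desaturases, fell by 0.49 ± 0.07 (adjusted p = 0.000282). Elovl7 fell by 0.45 ± 0.14 (adjusted p = 0.0321), a call lost on leaving out sham array 2, 3, 4 or 5, or array 3, 5 or 6 of the denervated group (adjusted p = 0.0514 to 0.0722). Scd2, the second stearoyl-CoA desaturase, was at 11.05 in sham and 10.91 in denervated bladders, a difference of -0.14 ± 0.11 that was not called. Without denervated replicate 2, Fads3 and Elovl1, named after their values were seen, also rose.

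Among the remaining genes of glycerolipid assembly 3 fell, 1 rose and 12 were not called, of 16. The phosphatidate phosphatases, which make diacylglycerol, split: Lpin1 fell by 0.42 ± 0.10 (adjusted p = 0.00618) and Lpin3 by 0.25 ± 0.06 (adjusted p = 0.00902), and Lpin2 rose by 0.34 ± 0.10 (adjusted p = 0.0233). The call of Lpin2 was lost on leaving out sham array 2 or 5, or denervated array 4 (adjusted p = 0.0536 to 0.0540). Agpat4, an acyltransferase, fell by 0.33 ± 0.08 (adjusted p = 0.0103). Without denervated replicate 2, 2 genes of this list rose.

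Lipid droplet genes moved both ways, with 4 falls, 2 rises and 7 uncalled genes of 13. Plin2, the droplet coat protein found in most lipid-laden cells including macrophages, rose by 0.89 ± 0.15 (adjusted p = 0.000957), from 9.24 to 10.13 with no overlap of the groups. Cidea, a protein of droplet fusion, fell by 0.80 ± 0.16 (adjusted p = 0.00252). Pnpla3 fell by 0.66 ± 0.08 (adjusted p = 0.000207), and Pnpla2, the adipose triglyceride lipase, by 0.43 ± 0.08 (adjusted p = 0.00139). Lipe, the hormone-sensitive lipase, was at 0.03 ± 0.08 (at -0.02 without denervated replicate 4) and was not called. Hilpda, an inhibitor of that triglyceride lipase, rose by 0.35 ± 0.12 (adjusted p = 0.0465). On leaving out sham array 1, 2, 4 or 6, or array 1, 3, 4, 5 or 6 of the denervated group, the call of Hilpda was lost (adjusted p = 0.0508 to 0.0972) and the list had 1 rise, as it had with further quantile normalization (adjusted p = 0.0611).

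For fatty acid uptake and activation, 2 of 14 rose, 2 fell and 10 were not called. Gpihbp1, the endothelial anchor of lipoprotein lipase, rose by 0.86 ± 0.11 (adjusted p = 0.000188), and Lrp1, a lipoprotein receptor, by 0.51 ± 0.07 (adjusted p = 0.000355). The acyl-CoA synthetases Acsl3 (-0.50 ± 0.10, adjusted p = 0.00269) and Acsl6 (-0.44 ± 0.10, adjusted p = 0.00694) fell. Of 16 genes of cholesterol synthesis, the pathway under SREBP-2, 3 fell, 0 rose and 13 were not called. The falls were those of Sc5d (-0.59 ± 0.07, adjusted p = 0.000160), Tm7sf2 (-0.51 ± 0.08, adjusted p = 0.000681) and Hsd17b7 (-0.46 ± 0.13, adjusted p = 0.0187), all enzymes of late sterol steps. There, 2 members rose without denervated replicate 2 and 1 without sham replicate 3.

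**Figure D3:**
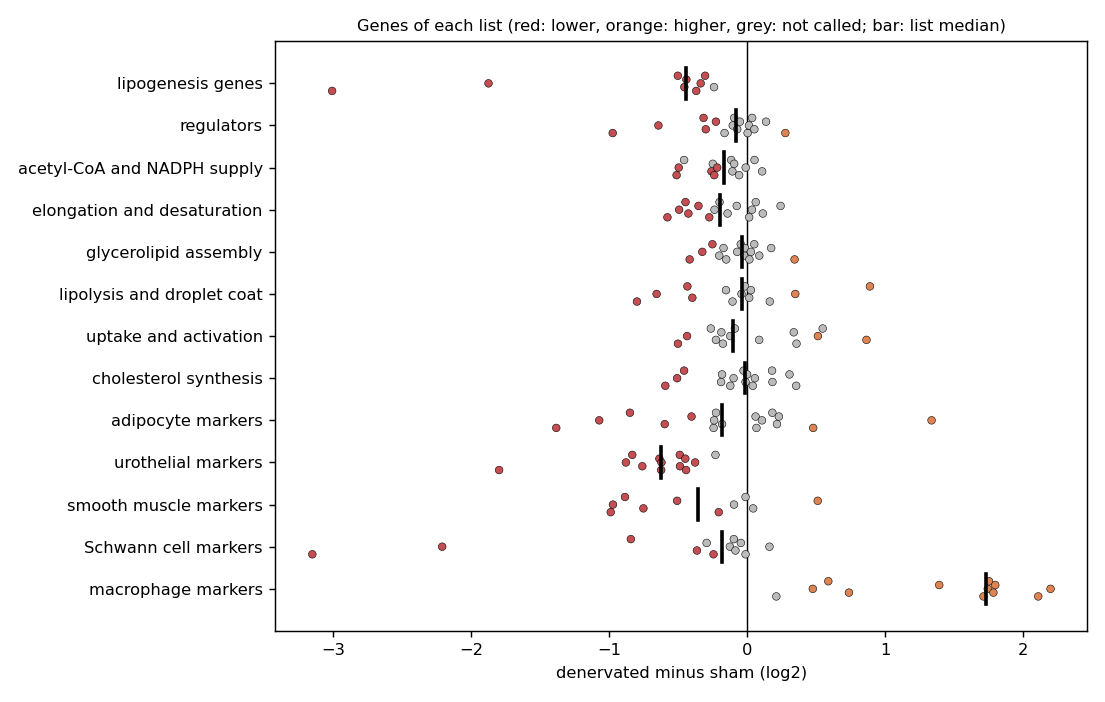
Difference of the group means (horizontal axis, denervated minus sham, log2) for every measured gene of each list, with calls in colour and the list median as a black bar. The median is -0.44 for the lipogenesis genes, which were chosen by this contrast. It is between -0.20 and -0.02 for the 7 other lists of lipid metabolism, -0.62 for urothelial and 1.73 for macrophage markers.

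Markers of cell types that could hold these genes changed between the groups, and their counts stand beside 16.9% of all genes called lower and 11.9% called higher. Of 17 adipocyte markers 5 fell, 2 rose and 10 were not called, with a median of -0.18, and 9 of them lay below the array medians in sham bladders. The mean level of the list was 6.83 to 7.13 in sham and 6.51 to 7.10 in denervated arrays, and none of the markers was at 0. Adipoq (adiponectin) ranged from 7.72 to 9.08 in sham and from 5.93 to 9.77 in denervated bladders. Its difference was -0.24 ± 0.56, not called, and 0.23 without denervated replicate 2. Plin1, the coat protein of adipocyte droplets, was at 0.23 ± 0.23 and not called. Other markers of the list were called, and cells other than adipocytes can express those that fell and those that rose. Lower were Slc2a4, the insulin-responsive glucose transporter (-1.38 ± 0.20, adjusted p = 0.000424), and Adrb3, the beta-3 adrenoceptor (-1.07 ± 0.18, adjusted p = 0.000863). So were Plin4 (-0.85 ± 0.18, adjusted p = 0.00313) and the nuclear receptor Pparg (-0.60 ± 0.10, adjusted p = 0.000744). Fabp4 fell by 0.40 ± 0.14 (adjusted p = 0.0455), a call lost on leaving out sham array 1, 3, 4, 5 or 6, or array 2, 3 or 6 of the denervated group (adjusted p = 0.0502 to 0.0961), and also with array weights (0.0727). Cfd (adipsin) rose by 1.34 ± 0.24 (adjusted p = 0.00122) and Cebpa by 0.48 ± 0.12 (adjusted p = 0.00903).

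The mean of the 17 markers was 7.10, 6.51, 6.58, 6.75, 7.02 and 7.03 in denervated replicates 1 to 6, and it averages markers that rose with markers that fell. In the same order Scd was at 6.72, 6.06, 6.57, 5.96, 7.13 and 6.36, and Thrsp at 7.43, 6.26, 5.81, 6.15, 7.24 and 8.02. The 3 arrays with the lowest marker mean, replicates 2, 3 and 4, also had the lowest Thrsp values. For Scd the lowest were replicates 4, 2 and 6, and replicate 6 had a marker mean of 7.03.

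Within each group, where the contrast that chose the genes does not enter, every gene was set against the mean of the adipocyte markers over 6 arrays, 18 relations in all. Exact permutation over 6 arrays cannot give a two-sided p below 0.00278 for Spearman's rho without ties. For Pearson's r the lowest possible p depends on the spacing of the values and can be smaller. After adjustment over the 18 relations none was past 0.05, and before it 1 was by Pearson's r. Scd in sham arrays came closest (Pearson r = 0.97, exact permutation p = 0.00556, adjusted p = 0.10; Spearman rho = 0.83, exact permutation p = 0.0583, adjusted p = 0.264), and r was 0.91 without the 2 arrays farthest from the median of the markers. In denervated arrays Scd gave r = 0.58 (exact permutation p = 0.219, adjusted p = 0.564; rho = 0.49, p = 0.356, adjusted p = 0.640) and 0.74 without the 2 farthest. In sham arrays Thrsp gave r = 0.78 (exact permutation p = 0.0708, adjusted p = 0.255; rho = 0.77, p = 0.103, adjusted p = 0.264), which dropped to 0.33 without the 2 farthest. In denervated arrays it gave r = 0.89 (exact permutation p = 0.0583, adjusted p = 0.255; rho = 0.77, p = 0.103, adjusted p = 0.264), and 0.87 without the 2 farthest. Of the other relations, that of Dgat2 in denervated arrays had rho = 0.89 (exact permutation p = 0.0333, adjusted p = 0.264) with r = 0.74 (p = 0.0514, adjusted p = 0.255), which dropped to 0.47 without the 2 farthest.

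**Figure D4:**
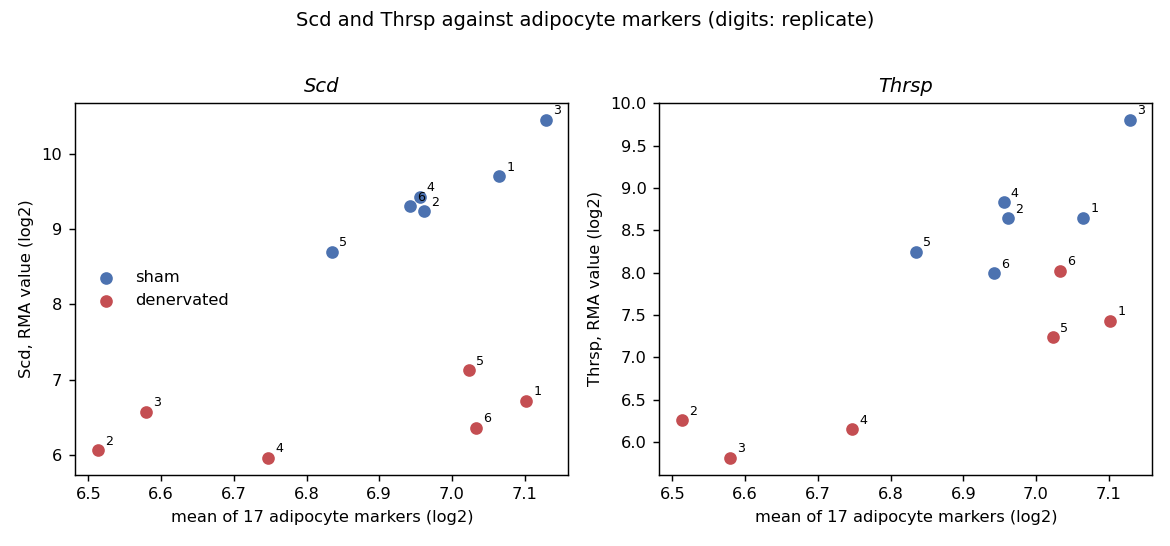
Scd (left) and Thrsp (right), RMA values on the log2 scale, against the mean of 17 adipocyte markers in each of 6 sham (blue) and 6 denervated (red) arrays, numbered by replicate. The marker mean spans 6.83 to 7.13 in sham and 6.51 to 7.10 in denervated arrays; Scd, chosen for its difference between the groups, spans 8.70 to 10.45 and 5.96 to 7.13.

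Urothelial markers were lower as a list, with 12 of 13 falling, 0 rising and a median of -0.62. Their mean level was 10.57 to 10.84 in sham and 9.72 to 10.22 in denervated arrays, and none was at 0. Krt20, a keratin of the superficial cells, fell by 1.80 ± 0.20 (adjusted p = 9.23e-05), Grhl3, a factor of barrier formation, by 0.88 ± 0.11 (adjusted p = 0.000175) and the uroplakin Upk3b by 0.83 ± 0.21 (adjusted p = 0.0106). Over the 18 relations of the lipogenesis genes with the mean of these markers within a group, none was past 0.05 after adjustment, and 2 were before it by Pearson's r. The closest was Gpam in denervated arrays (Pearson r = 0.93, exact permutation p = 0.0111, adjusted p = 0.20; Spearman rho = 0.83, exact permutation p = 0.0583, adjusted p = 0.350; r = 0.83 without the 2 farthest arrays). Scd in sham arrays ran the other way (r = -0.83, exact permutation p = 0.0403, adjusted p = 0.317; rho = -0.83, exact permutation p = 0.0583, adjusted p = 0.350; r = -0.65 without the 2 farthest).

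The remaining marker lists give the other cells that changed beside these genes. Of 10 smooth muscle markers 6 fell, 1 rose and 3 were not called, with Mylk (-0.99 ± 0.14, adjusted p = 0.000414), Synm (-0.97 ± 0.20, adjusted p = 0.00306) and Myocd (-0.89 ± 0.21, adjusted p = 0.00736) lowest and Smtn at 0.51 ± 0.15 (adjusted p = 0.0211). Their mean level was 11.20 to 11.42 in sham and 10.60 to 11.16 in denervated arrays. Of 12 Schwann cell and myelin markers 5 fell, 0 rose and 7 were not called, with Scn7a (-3.15), Cdh19 (-2.21) and S100b (-0.84) lowest. The mean level of that list was 7.29 to 7.44 in sham arrays, and 6.57 to 7.16 after denervation. Of 12 macrophage markers 11 rose and 0 fell, led by Cd68 (2.20), Lyz2 (2.11) and Ptprc (1.80), and the list mean went from 8.26 to 8.44 up to 9.25 to 10.12. None of these markers was at 0. The part of adipocyte, urothelial, muscle, Schwann cell and macrophage RNA in the differences of the lipogenesis genes was not tested.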

How the data were processed

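Total RNA of 12 bladder samples was labelled with biotin, per the labels' protocols, for 1 array each. The deposited values are log2 expression values, made by the authors with RMA in Affymetrix Expression Console 1.4.1.46, per the submitters' processing notes. For the array's build and annotation, the sources used here give nothing. The number of arrays limits the precision.

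Of 36685 probe sets, 18511 carry 1 gene symbol in the platform table, 575 several and 17599 none, and 18394 of the first matched a gene of RefSeq assembly GRCr8, used for names and upstream sequence. The brightest probe set stood for a gene, which left 18166 genes, with no filter. Groups were compared with limma 3.58.1 in R 4.3.3 (lmFit, eBayes, two-sided, Benjamini-Hochberg over all genes, threshold 0.05). The script was tested on simulated data. Relations within a group were tested by exact permutation in Python 3.11.15 with scipy 1.17.1 and adjusted over 18 each.

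The genes and lists were chosen with earlier results of these data known. Genes were named as follows: all members, up to 3 called genes with the largest rise and up to 3 with the largest fall per list, 16 genes whatever their values where measured, and the 5 most alike over 12 arrays. Some of those 16 are not reported here. Alternatives were further quantile normalization, median centring, leaving out the dimmest 25% of genes, eBayes with trend and robust variance, weights per array, averaging the probe sets of a gene, a block for the replicate number, and leave-one-out fits; the removal of sham replicate 3 with denervated replicate 2 was added after seeing the data.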

Additional observations from a re-analysis of the deposited data

Results flagged for a closer look

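In groups of 6, an array was pointed out when its gap to the nearest other array passed Dixon's critical value. Chance gives about 1 in 20 groups, and 12 of the 160 groups examined were pointed out. None was a lipogenesis gene. In denervated replicate 2 these were Ppargc1b (7.32), Cdh19 (6.92, next 5.15), the mean of the Schwann cell markers (7.16, next 6.75), all highest of their group, and Lyz2 (12.11, next 12.74), the lowest. Other denervated arrays were Nr1h3 in replicate 6 (7.95, highest), Me3 in replicate 1 (5.26, highest), Pnpla2 in replicate 3 (9.80, lowest) and Scd2 in replicate 4 (10.55, lowest). Among sham arrays, replicate 6 was lowest for Sc5d (9.48) and Bin2 (6.14) and highest for Mylk (11.06), and replicate 3 was highest for C8h11orf97 (6.15).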

How the results depend on the processing

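Of the 9 measured lipogenesis genes all stayed below 0 in every alternative, and 6 to 9 were called lower. Acly was called with each array centred on its median. Replicate numbers did not pair the arrays: deviations of same-numbered arrays correlated at -0.11 to 0.10. With the replicate block 6 lipogenesis genes were called, Dgat2 (adjusted p = 0.0889 in limma) and Srebf1 (0.0669) losing their calls, as did Elovl7 (0.0616), Rbp4 (0.0910) and Slc25a10 (0.109), and 2 genes of substrate supply fell in place of 5. Array weights gave 1 rise among elongation and desaturation genes, 2 in glycerolipid assembly, 4 in uptake and 1 in cholesterol synthesis. Further quantile normalization gave 1 rise among lipid droplet genes. Without sham replicate 3 and denervated replicate 2 together, an alternative chosen after seeing the data, the calls of Dgat2 (adjusted p = 0.0946 in limma), Elovl7 (0.0533), Fabp4 (0.127), Rbp4 (0.109) and Slc25a10 (0.0887) were lost, elongation and cholesterol genes had 1 rise each and Adipoq was at 0.33. Leaving out 1 array at a time gave 2 to 6 falls in substrate supply, and rises of 0 to 2 in elongation, 0 to 2 in glycerolipid assembly, 1 to 2 among droplet genes and 0 to 2 in cholesterol synthesis. Over the same fits Adipoq ran from -0.54 to 0.23, Lipe from -0.024 to 0.056 and C8h11orf97 from -0.0057 to 0.043, none of them called. C8h11orf97 was at -0.0078 with median centring and at -0.036 with further quantile normalization. The cause of these changes was not tested. Values near or below the array medians have an unknown share of background. They include the means of Scd and Thrsp after denervation, and those of Elovl4, Elovl7, Pnpla3 and Acsl6 in both groups. Also among them were the means of Hilpda in both groups, Gpihbp1 and Bin2 in sham, and Adrb3, Krt20, Ppargc1b, Cdh19 and Rbp4 after denervation. The size of the differences of these genes is uncertain.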
